A study of Mus musculus with 8 samples.

Results

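The comparison described here is that of injured with uninjured limbs in mice given a placebo antibody, in RNA sequenced from knee articular cartilage 7 days after anterior cruciate ligament transection (ACLT). It was chosen by its labels and rests on 4 of the 8 libraries of the series, 2 pools of placebo ACLT limbs and 2 pools of placebo control limbs, each named A and B. All mice were 4 to 5 months old and of both sexes, and a human monoclonal antibody was injected under the skin every few days at 10 mg/kg. The placebo was the antibody REGN1945, and the other 4 libraries came from ACLT and control limbs of mice given the anti-GDF8 antibody. The control limb was the contralateral hind limb of the same mice, with no surgery, so both limbs of a mouse had seen the same antibody and the groups share their animals. A pool held tissue of 4 limbs according to the methods of the study, which count 8 mice per group, whereas the labels give 4 mice per treatment. C57BL/6J mice and mice with a Col1-eGFP transgene were both used in the study, and the strain of the cartilage mice is not given in the sources used here. Every p-value measures the spread between pools, taken over all 4 groups and moderated by that of other genes. Apart from a letter and a number, the labels name nothing that separates the 2 replicates of a group.

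Articular cartilage is a tissue of few cells in a dense matrix of type II collagen and aggrecan, set between the synovial lining, the joint capsule, the subchondral bone with its marrow, and the muscles and tendons that cross the joint. After rupture of a ligament the lining thickens, fibroblasts lay down type I and type III collagen, macrophages arrive, and bone under the cartilage is resorbed by osteoclasts. Skeletal muscle around the joint loses mass, and GDF8, or myostatin, is a secreted factor of muscle that limits its size.

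The values are CPM, the reads of a gene per 1000000 reads of its library. With M for 1000000, the depth was 20.1 and 25.7 M reads in the placebo ACLT pools and 20.1 and 28.1 M in those of placebo control, and between 16.4 and 27.6 M reads in the other 4 libraries, so that 5 CPM stands for about 100.4 reads at the median depth. A log2 fold change is the difference of mean log2(CPM + 0.0498), where the added value is that of 1 read. It was fitted with limma over all 8 libraries for the 17401 genes that averaged 10 reads or more, and a gene was called at a Benjamini-Hochberg adjusted p under 0.05. The tissue label was checked with defining chondrocyte markers. Type II collagen (Col2a1) had 346 and 229 CPM in the placebo ACLT pools A and B, against 283 and 1654 CPM in the placebo control pools. Aggrecan (Acan) had 70.5 and 70 CPM in placebo ACLT, against 84.3 and 88 CPM in placebo control. The cartilage list as a whole took 0.129% to 0.413% of the reads of the 8 libraries. Erythroid genes took 7.14% to 13.5% and neutrophil granule genes 2.59% to 4.33%, so each pool carried RNA of blood or marrow beside that of cartilage. In a bulk sample, fewer cells of a type, less RNA per cell and less of a neighbouring tissue in the pool cannot be told apart.

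Placebo ACLT pools had higher RNA of connective tissue matrix, macrophages and osteoclasts than placebo control pools. They had lower RNA of skeletal muscle and of the mitochondrial genome. Of all tested genes, 2011 (11.6%) rose and 701 (4.03%) fell. The rises had a median log2 fold change of 1.28, and 415 of them were at least 4-fold. The falls had a median of -1.76, but were of 2 kinds, since 269 were at least 8-fold and most of the rest were under 4-fold. The median over all tested genes was 0.17 rather than 0. Rescaling by trimmed means moved it to -0.05 and the calls to 1494 higher and 1556 lower, so that rises made up 49.0% of all calls, against 74.2% without rescaling. Without placebo ACLT pool A there were 551 rises and 127 falls, without ACLT pool B 720 and 221, and without control pool B 836 and 191. With the mean of the muscle lists as a covariate 1 gene rose and none fell in limma, while 2302 had an unadjusted p under 0.05, against 5456 without the covariate. In the plot of list members, the muscle lists lie furthest to the left and the connective tissue collagens furthest to the right.

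**Figure D1:**
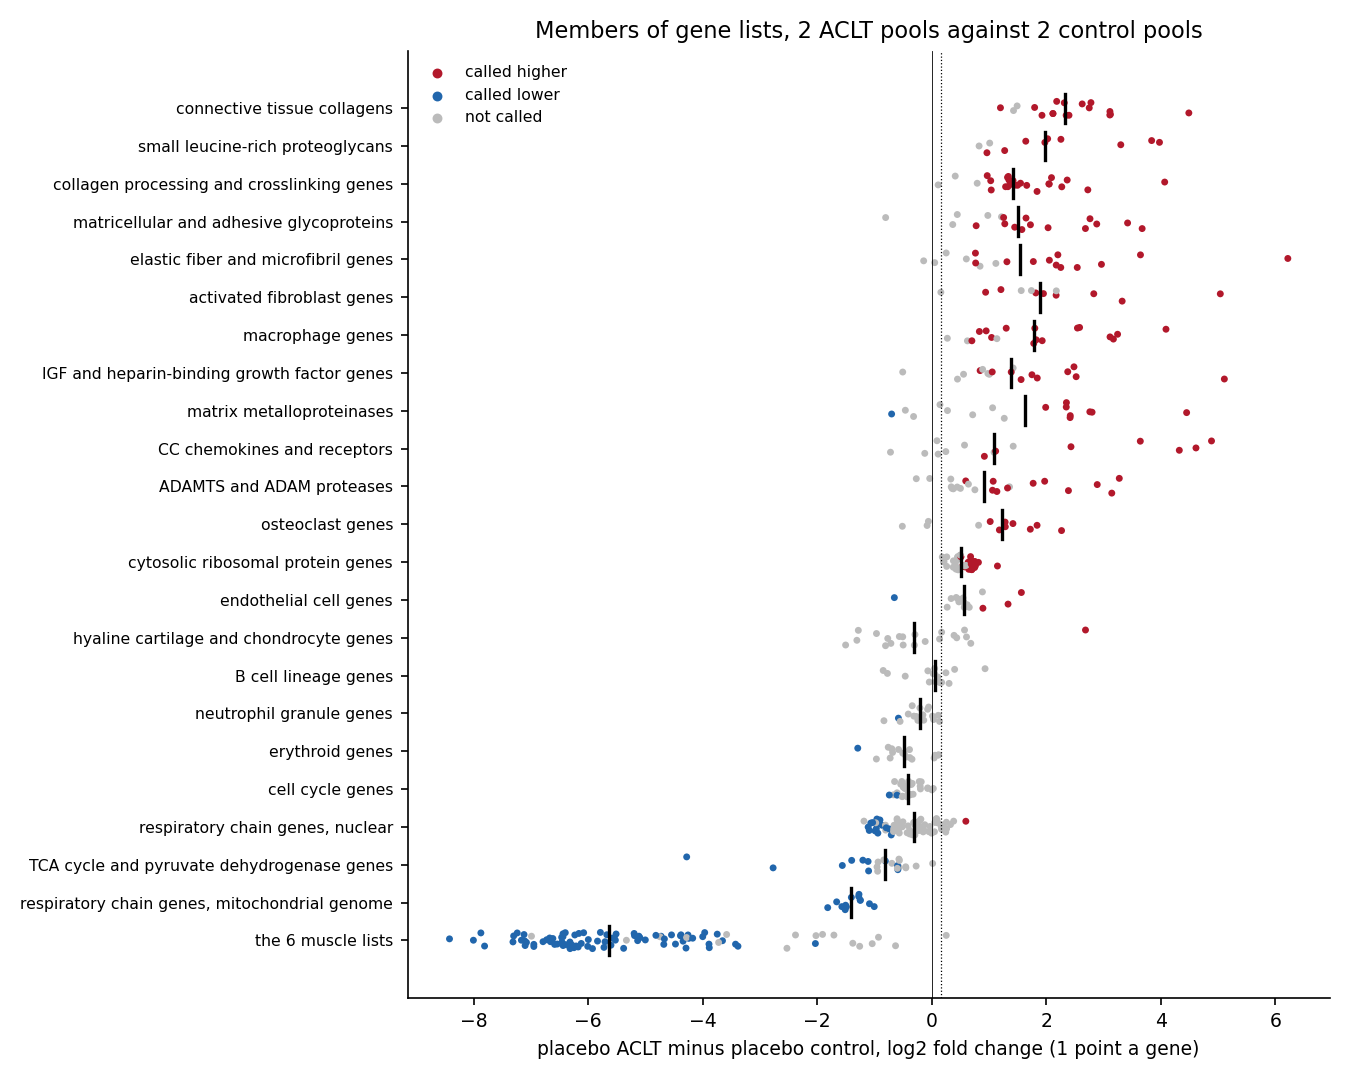
Log2 fold change of placebo ACLT over placebo control (horizontal axis) for every tested member of 22 gene lists and of the 6 muscle lists together, 1 point a gene, red for called higher, blue for called lower and grey for neither. The bar is the median of a list, and the dotted line is the median of all 17401 genes, 0.17. All 13 mitochondrial genes and 83 of 100 muscle genes are blue, and 16 of 18 connective tissue collagens are red.

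Skeletal muscle transcripts were nearly gone from the placebo ACLT pools. Genes of the 6 muscle lists took 0.107% and 0.0668% of reads in the placebo ACLT pools A and B, against 4.34% and 9.98% in the placebo control pools. Both ACLT pools are far below both control pools, and the control pools differ from each other. Of 108 listed genes 100 were tested, 83 fell, none rose, and the median log2 fold change was -5.64 (4.03% of all genes fell). The count was 31 without ACLT pool A, 36 without ACLT pool B and 23 without control pool B, 24 with robust estimates and 52 without the intensity trend, and the median stayed between -6.25 and -5.07 when any placebo pool was left out.

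Skeletal alpha-actin (Acta1), the thin filament protein of muscle fibers, had 98.4 and 55.1 CPM in the placebo ACLT pools A and B, against 5923 and 18897 CPM in the placebo control pools (log2 fold change -7.17, SE 1.07, adjusted p = 0.00432). Creatine kinase M (Ckm), which regenerates ATP beside the myofibrils, had 47.6 and 22.9 CPM in placebo ACLT, against 2639 and 6322 CPM in placebo control (log2 fold change -6.95, SE 0.96, adjusted p = 0.00335). The calcium pump of fast fibers (Atp2a1) had 71.8 and 47.8 CPM in placebo ACLT, against 5678 and 15282 CPM in placebo control (log2 fold change -7.31, SE 1.19, adjusted p = 0.00574). In each of these genes control pool B held more than 2 times the value of control pool A, as in the muscle share of reads. Among the 8 muscle genes with the highest control means, the others were Actn3, Tnnc2, Myh4, Myl1 and Pygm, with log2 fold changes from -8.00 to -6.21. All 32 sarcomere and Z-disc genes fell, with a median of -5.97. All 16 genes of fiber energy supply fell, with a median of -5.07, and so did 17 of 19 genes that couple excitation to contraction, with a median of -5.11, among them triadin (Trdn) and Jsrp1, both at a log2 fold change of -6.32. Fast fiber genes fell in 14 of 15 cases. With each placebo pool left out in turn, the calls ran between 5 and 25 in the sarcomere list, 2 and 13 in the energy list, 3 and 15 in the coupling list and 11 and 13 in the fast fiber list, lowest without control pool B (and, for the coupling list, as low without ACLT pool A).

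Slow fiber genes differed between the control pools. Of them, 2 of 11 fell, namely Myl3 and Mybpc1. The slow myosin heavy chain (Myh7) had 0.249 and 0 CPM in placebo ACLT, against 1.28 and 181 CPM in placebo control, and it did not pass (adjusted p = 0.0703, limma). Slow troponin I (Tnni1) had 0.399 and 0.389 CPM in placebo ACLT, against 0.596 and 52.9 CPM in placebo control (adjusted p = 0.17). Both are high in control pool B alone, and the median log2 ratio of control pool B over pool A was 3.78 for the slow fiber list, against 0.92 for the fast fiber list and -0.19 for all tested genes. Genes of embryonic or regenerating muscle were mostly at or below a few CPM in all 4 placebo libraries. Myogenin (Myog), a factor of muscle differentiation, had 0.199 and 0.389 CPM in placebo ACLT, against 1.24 and 1.14 CPM in placebo control and was not called.

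The actin of heart and embryonic muscle, Actc1, fell strongly. It had 0.698 and 0.583 CPM in placebo ACLT, against 125 and 209 CPM in placebo control (log2 fold change -7.87, SE 0.60, adjusted p = 0.000795), and its groups do not overlap. In the anti-GDF8 control limbs it had 8.58 and 7.07 CPM, so its level in placebo control is above that of uninjured limbs under the other antibody as well. The muscle regulatory factor Myf6, which marks mature fibers, also fell, with 0.199 and 0.311 CPM in placebo ACLT, against 19.5 and 42.4 CPM in placebo control (log2 fold change -6.59, SE 0.80, adjusted p = 0.0021). Of the genes tied to muscle wasting, the ubiquitin ligase MuRF1 (Trim63) had 1.89 and 1.71 CPM in placebo ACLT, against 149 and 445 CPM in placebo control (log2 fold change -7.12, SE 0.60, adjusted p = 0.000942) and the ligase atrogin-1 (Fbxo32) had 18 and 16.4 CPM in placebo ACLT, against 113 and 440.2 CPM in placebo control (log2 fold change -3.70, SE 0.69, adjusted p = 0.0101). Both rise in wasting muscle as a rule, and here both lay lower in the injured limb together with the fiber genes, which they follow across the anti-GDF8 ACLT pools as well. Myostatin (Mstn) had 1.3 and 1.48 CPM in placebo ACLT, against 17.2 and 38.1 CPM in placebo control (log2 fold change -4.16, SE 1.04, adjusted p = 0.0298). With the mean of the muscle lists as a covariate its log2 fold change was 1.26, and it was not called. The muscle lists had a median of -5.64 in these cartilage pools, so the values give no level per amount of muscle. In the quadriceps itself the study reports a higher GDF8 abundance after ACLT, in patients measured as protein, whereas the Mstn values here are RNA. It saw no change in expression of the genes Trim63 and Fbxo32 there.

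The upstream sequences of 2 of these genes are shown because both hold the E-box CAGCTG, a sequence that muscle regulatory factors can bind, and the TATA box TATAAA. They are the 250 bases before the RefSeq start on GRCm38.p6, 5′ to 3′, with both motifs in capitals. Acta1 lies at chr8:123894776-123895025, minus strand and Trim63 at chr4:134314870-134315119, plus strand.
Acta1: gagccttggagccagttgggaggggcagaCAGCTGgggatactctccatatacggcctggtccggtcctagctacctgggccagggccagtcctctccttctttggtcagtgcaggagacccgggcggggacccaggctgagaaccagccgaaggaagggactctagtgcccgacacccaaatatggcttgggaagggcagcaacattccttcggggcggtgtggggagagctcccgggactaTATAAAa
Trim63: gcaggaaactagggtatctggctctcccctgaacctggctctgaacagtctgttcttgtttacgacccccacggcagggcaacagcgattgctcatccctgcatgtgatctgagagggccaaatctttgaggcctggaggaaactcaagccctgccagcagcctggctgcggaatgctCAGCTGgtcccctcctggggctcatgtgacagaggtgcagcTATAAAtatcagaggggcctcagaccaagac
The E-box was present in 28 of the 60 muscle-list genes that fell and have such a promoter (46.7%), and in 45 of 202 genes that fell outside the lists and followed muscle as defined below (22.3%), against 14.6% of the 12049 tested genes with a promoter in the RefSeq table. TATAAA was found in 15.0%, 20.8% and 8.9% of the same 3 sets, and a motif like that of MEF2 (CTA and TAG with any 4 bases between) in 15.0%, 9.4% and 3.5%. Genes that rose at least 4-fold held TATAAA in 13.9% and the E-box in 19.2%. Both strands were searched, and a match describes the letters only.

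A ratio between 2 libraries outside the placebo groups was used to separate genes that went with muscle from those that did not. The 2 anti-GDF8 ACLT pools differed in muscle RNA, with 0.330% of reads in pool A and 4.79% in pool B. The median gene differed by -0.02 on the log2 scale between them. They differed in other lists too, so the ratio is not one of muscle alone. Its median was 0.94 for adipocyte genes, -0.80 for cartilage genes and -1.14 for B cell genes, and 4 of 11 adipocyte genes reached the limit given next. A gene was said to follow muscle when its log2 ratio of pool B over pool A was at least 1, which holds for 97 of the 100 muscle-list genes and for 6.83% of the genes outside those lists. Those 2 pools take no part in the placebo means, but in the fit over all 8 libraries their difference adds to the residual spread, so a gene with a large ratio of either sign is harder to call. Of the 618 genes that fell outside the lists, 260 (42.1%) followed muscle and 358 did not. With only the 4 placebo libraries in the fit the split turned round, with 394 that followed and 291 that did not, and with robust estimates it was 120 against 393. The falls that followed had a median log2 fold change of -4.20, and those that did not had a median of -0.86, with 133 at least 2-fold and 20 at least 4-fold.

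The share of falls grew with that ratio in spite of the added spread. Outside the muscle lists, 1.26% of 6988 genes with a ratio from -0.5 to 0 fell, 2.85% of those from 0 to 0.5, 6.65% from 0.5 to 1, 10.2% from 1 to 2, 27.3% from 2 to 3 and 58.6% of 203 genes at 3 or more. The share of rises was lower on both sides of 0, with 5.33% under -1, 9.46% from -1 to -0.5, 14.1% from -0.5 to 0 and 0.49% at 3 or more. The median log2 fold change, which does not depend on the spread, was 0.21 from -0.5 to 0, 0.036 from 1 to 2, -1.28 from 2 to 3 and -4.21 at 3 or more. Part of the falls that did not pass the ratio of 1 thus lies in a range where falls are still more frequent than among genes with no ratio, and the part of muscle RNA in them was not tested. Raising the ratio to 2 moved 75 genes out of those that follow and left 433 falls that did not.

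**Figure D2:**
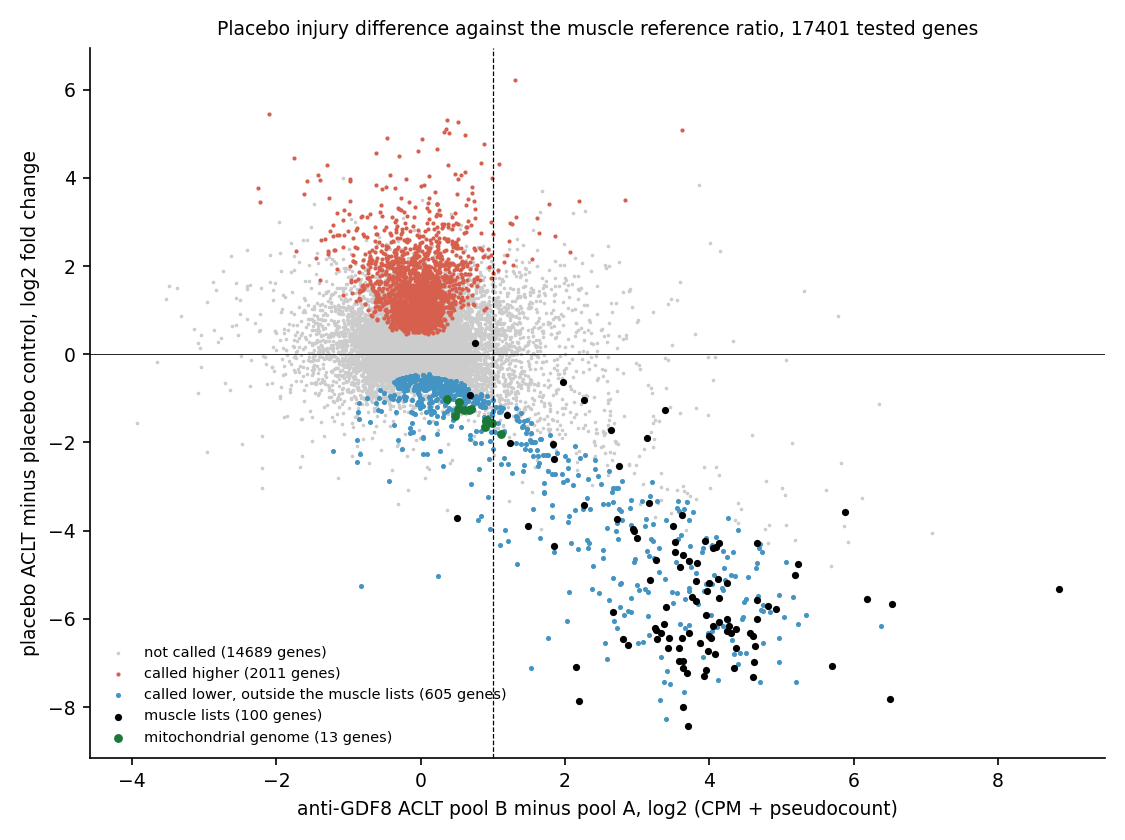
Placebo log2 fold change (vertical axis) against the log2 ratio of anti-GDF8 ACLT pool B over pool A (horizontal axis) for the 17401 tested genes, with the dashed line at the ratio of 1. Muscle-list genes (black) lie at the lower right, most rises (red) lie around a ratio of 0, and the 13 mitochondrial genes (green) lie near or left of the dashed line, below the line of no change.

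Genes of fibrillar and other connective tissue collagens rose together. Of 18 tested, 16 rose and none fell, with a median log2 fold change of 2.33 against 0.17 for all genes (11.6% of all genes rose). None of the 18 followed muscle. The count stayed between 12 and 16 when any placebo pool was left out. The list took 4.27% and 2.33% of reads in the placebo ACLT pools, against 0.578% and 1.36% in the placebo control pools.

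The type III collagen Col3a1, the main fibrillar collagen of early repair tissue, had 5932 and 6209 CPM in the placebo ACLT pools A and B, against 628 and 116 CPM in the placebo control pools (log2 fold change 4.49, SE 0.64, adjusted p = 0.00365). Its control pools lie far apart, and both ACLT pools lie well above them. The smallest adjusted p of the list was that of Col5a3, a chain of the type V collagen that nucleates fibrils, with 244 and 301 CPM in placebo ACLT, against 38.5 and 25.5 CPM in placebo control (log2 fold change 3.11, SE 0.21, adjusted p = 0.00067). The type VI chains Col6a1 and Col6a2, of the fine filaments around cells, had log2 fold changes of 2.78 and 2.75, and the basement membrane chain Col4a1 had 2.12. Of 26 genes that hydroxylate, fold, cleave or crosslink collagen 23 rose, with a median of 1.41, and 14 rose without ACLT pool A. The prolyl hydroxylase subunit P4ha3 had 39.5 and 35.2 CPM in placebo ACLT, against 3.78 and 1.25 CPM in placebo control (log2 fold change 4.07, SE 0.47, adjusted p = 0.00168). The procollagen C-proteinase enhancer Pcolce had a log2 fold change of 2.37, the lysyl oxidases Loxl1 and Loxl3 had 2.09 and 1.46, and lysyl oxidase itself (Lox) had 1.40, all of them called.

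Proteins that decorate or organise the fibrils rose as well. Of 11 small leucine-rich proteoglycans 9 rose, with a median of 1.98 (11.6% of all genes rose). Asporin (Aspn), which binds collagen and TGF-beta, had 412 and 368 CPM in placebo ACLT, against 57.9 and 12.7 CPM in placebo control (log2 fold change 3.84, SE 0.54, adjusted p = 0.00342). Lumican (Lum) had 1365 and 1277 CPM in placebo ACLT, against 237 and 75.7 CPM in placebo control, a log2 fold change of 3.30. Within the control limbs these genes were lower in pool B than in pool A, by a median log2 difference of -1.27. The count was 3 without ACLT pool A, 4 without ACLT pool B and 4 without control pool B. Of 18 matricellular and adhesive glycoproteins 13 rose, or 7 without either ACLT pool, each left out in turn. Periostin (Postn), made by activated fibroblasts and bone-lining cells, had 368 and 396 CPM in placebo ACLT, against 44 and 20.2 CPM in placebo control (log2 fold change 3.67, SE 0.37, adjusted p = 0.0012). Thbs2, Ccn5 and Ccn3 had log2 fold changes of 2.88, 2.76 and 2.03. Of 18 elastic fiber genes 12 rose, led by the microfibril protein Mfap4, with 21.2 and 12.9 CPM in placebo ACLT, against 0.0994 and 0.285 CPM in placebo control (log2 fold change 6.22, SE 0.74, adjusted p = 0.00195). Elastin (Eln) itself had 53.3 and 53.6 CPM in placebo ACLT, against 12.8 and 12.9 CPM in placebo control, a log2 fold change of 2.05, and fibulin-2 (Fbln2) and fibrillin-1 (Fbn1) had 2.25 and 2.54.

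Markers of fibroblasts moved with these matrix genes. Of 12 activated fibroblast genes 8 rose with a median of 1.88 (11.6% of all genes rose). Of 11 resident fibroblast genes 6 rose with a median of 1.64, and none fell in either list. Podoplanin (Pdpn), of activated lining fibroblasts, had 18.3 and 23.2 CPM in placebo ACLT, against 2.83 and 1.42 CPM in placebo control (log2 fold change 3.33, SE 0.36, adjusted p = 0.00139). Ly6a, the antigen Sca-1 of resident fibroblasts and other progenitors, had 411 and 485 CPM in placebo ACLT, against 109 and 61.3 CPM in placebo control (log2 fold change 2.45, SE 0.25, adjusted p = 0.0012). The activated list summed to 0.0724% and 0.0735% of reads in placebo ACLT, against 0.0284% and 0.0216% in placebo control, and the part of cell numbers in the matrix rise was not tested. In the tendon and ligament list 3 of 8 genes rose, namely Egr1, Clec11a and the tendon transcription factor Scx. Egr1 and Clec11a are not confined to tendon cells, and Egr1 is also an immediate early gene, counted in this list alone. Scx had 10.1 and 5.83 CPM in placebo ACLT, against 1.99 and 2.28 CPM in placebo control (log2 fold change 1.83, adjusted p = 0.0161, limma). The count was 1 without ACLT pool A and 1 without control pool B, and the share of reads of this list overlapped, with 0.0747% and 0.0780% in placebo ACLT and 0.0923% and 0.0510% in placebo control. Genes outside all lists were also among the 14 largest rises. Bnc2, a zinc finger protein of fibroblasts, had 5.23 and 4.98 CPM in placebo ACLT, against 0.298 and 0.0712 CPM in placebo control (log2 fold change 4.65, SE 0.57, adjusted p = 0.00212). Crabp2, which carries retinoic acid in the cell, had 9.67 and 10.6 CPM in placebo ACLT, against 1.49 and 0.0712 CPM in placebo control (log2 fold change 4.56, SE 1.08, adjusted p = 0.0241). The other such genes were Prnd, C1qtnf3 and AW551984, with larger log2 fold changes of 5.44, 5.27 and 4.96.

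Metalloproteinases that degrade matrix rose, and so did the inhibitors Timp1 and Timp2. Over all tested genes 11.6% rose and 4.03% fell. Of 16 matrix metalloproteinases 8 rose and 1 fell (Mmp25), with a median of 1.63, and 5 rose without ACLT pool A. Stromelysin-1 (Mmp3), which cleaves proteoglycans and activates other proteases, had 103 and 118 CPM in placebo ACLT, against 9.54 and 2.6 CPM in placebo control (log2 fold change 4.45, SE 0.68, adjusted p = 0.00456). Collagenase-3 (Mmp13), which cuts type II collagen, had 708 and 664 CPM in placebo ACLT, against 147 and 122 CPM in placebo control (log2 fold change 2.35, SE 0.38, adjusted p = 0.00561). In both genes the ACLT pools are close together and above both control pools. Mmp19 had 22 and 23.3 CPM in placebo ACLT, against 4.35 and 2.5 CPM in placebo control, a log2 fold change of 2.76. Mmp14, Mmp11 and Mmp2 had 2.35, 2.42 and 2.80, all called. Of 22 ADAMTS and ADAM proteases 11 rose and none fell, against 5 without either ACLT pool and 7 without control pool B. The aggrecanase Adamts4 had 40.1 and 35 CPM in placebo ACLT, against 5.02 and 2.91 CPM in placebo control (log2 fold change 3.28, SE 0.47, adjusted p = 0.00371), Adamts12 had 13.5 and 14 CPM in placebo ACLT, against 3.03 and 1.07 CPM in placebo control (log2 fold change 2.89, SE 0.45, adjusted p = 0.0051), and Adamts15 and Adam12 had log2 fold changes of 2.39 and 1.77.

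The inhibitors of these enzymes differed among themselves. Timp1, which is induced in injured tissue, had 108 and 101 CPM in placebo ACLT, against 16.3 and 7.97 CPM in placebo control (log2 fold change 3.19, SE 0.33, adjusted p = 0.00122). Timp2 had 1085 and 1027 CPM in placebo ACLT, against 373 and 255 CPM in placebo control (log2 fold change 1.77, SE 0.20, adjusted p = 0.00149). Timp4 went the other way, with 2.99 and 5.09 CPM in placebo ACLT, against 16.4 and 15.4 CPM in placebo control (log2 fold change -2.01, SE 0.34, adjusted p = 0.00713), and it was not among the genes that follow muscle. Timp3, bound to matrix, had 186 and 181 CPM in placebo ACLT, against 282 and 171 CPM in placebo control and was not called (adjusted p = 0.47).

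The upstream sequences of Mmp3 and Mmp13 are shown because both carry the AP-1 motif TGANTCA, at which AP-1 factors bind, beside a TATAAA, both in capitals. They are 250 bases before the RefSeq start on GRCm38.p6, 5′ to 3′, with Mmp3 at chr9:7445572-7445821, plus strand and Mmp13 at chr9:7272264-7272513, plus strand.
Mmp3: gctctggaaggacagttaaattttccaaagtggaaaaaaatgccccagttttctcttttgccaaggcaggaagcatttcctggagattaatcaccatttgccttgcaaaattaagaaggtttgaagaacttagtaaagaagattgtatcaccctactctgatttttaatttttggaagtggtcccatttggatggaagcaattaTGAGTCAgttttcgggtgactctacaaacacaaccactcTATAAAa
Mmp13: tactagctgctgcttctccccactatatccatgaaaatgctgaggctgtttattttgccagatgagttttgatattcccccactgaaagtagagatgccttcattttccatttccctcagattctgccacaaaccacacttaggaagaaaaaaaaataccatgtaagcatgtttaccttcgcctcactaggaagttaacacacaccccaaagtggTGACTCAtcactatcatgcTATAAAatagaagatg
TGANTCA was found on either strand in 41 of 281 genes that rose at least 4-fold and have a promoter (14.6%), in 7.8% of all 1495 rises with one and in 6.0% of all 12049 tested genes with one. It was present in 11.7% of muscle-list falls and in 7.0% of falls outside the muscle lists that did not follow muscle. Of 19 immediate early genes, 4 rose, Fos, Fosl1, Atf3 and Klf4 (11.6% of all genes rose). These calls were lost without ACLT pool A or without control pool B, each of which leaves 1 pool in its group. The list median stayed between 0.54 and 0.88 with any 1 placebo pool left out. Fos had 77.8 and 35.4 CPM in placebo ACLT, against 25.6 and 15.8 CPM in placebo control (log2 fold change 1.38, SE 0.36, adjusted p = 0.0364), and Atf3 had 22.7 and 18 CPM in placebo ACLT, against 9.44 and 8.29 CPM in placebo control (log2 fold change 1.19, SE 0.27, adjusted p = 0.0203). Of the 2 other motifs searched, CATTCC was found in 15.5% of rises and 12.9% of all promoters, and CCAAT in 37.3% of rises and 40.2% of all promoters.

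Growth factors and their binding proteins of the IGF and heparin-binding list rose in 10 of 17 cases, with a median of 1.39. For this and the next lists, 11.6% of all tested genes rose. Insulin-like growth factor 1 (Igf1) had 117 and 125 CPM in placebo ACLT, against 27 and 16.3 CPM in placebo control (log2 fold change 2.52, SE 0.24, adjusted p = 0.000996). Pleiotrophin (Ptn) had 46.6 and 41.7 CPM in placebo ACLT, against 1.69 and 0.89 CPM in placebo control (log2 fold change 5.11, SE 0.47, adjusted p = 0.00095). Of 20 TGF-beta and activin family genes 5 rose, and 1 did without either ACLT pool or without control pool B. The ligand genes Tgfb1 and Gdf11 were not called, and Tgfb3 rose. Fstl1, a secreted glycoprotein of mesenchymal cells, had 452 and 568 CPM in placebo ACLT, against 87.7 and 49.3 CPM in placebo control (log2 fold change 2.94, SE 0.28, adjusted p = 0.001), and Tgfb2 and the receptor Tgfbr2 had log2 fold changes of 1.13 and 0.73. Of 17 BMP and Wnt ligands and antagonists 4 rose, namely Bmp4, Dkk3 and the secreted Wnt antagonists Sfrp2, with 23.1 and 25 CPM in placebo ACLT, against 2.14 and 0.996 CPM in placebo control (log2 fold change 3.99, SE 0.44, adjusted p = 0.00149), and Sfrp4, with 203 and 175 CPM in placebo ACLT, against 49.5 and 25.4 CPM in placebo control (log2 fold change 2.41, SE 0.27, adjusted p = 0.00154). The joint lubricant lubricin (Prg4) had 6123 and 6881 CPM in placebo ACLT, against 2231 and 1202 CPM in placebo control (log2 fold change 1.99, SE 0.31, adjusted p = 0.00471), and Tnfaip6, which modifies hyaluronan in inflamed joints, had 36 and 36 CPM in placebo ACLT, against 4.72 and 1.74 CPM in placebo control (log2 fold change 3.62, SE 0.63, adjusted p = 0.00761). They and Has1, Has2 and Hyal1 were the 5 of 9 lubrication and hyaluronan genes that rose, and 1 rose without either ACLT pool and 2 without control pool B.

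Macrophage genes rose in 15 of 18 cases, with a median of 1.79 (11.6% of all genes rose). All 18 had both ACLT pools above both control pools (38.8% of all genes did). Without ACLT pool B 9 rose. The list took 0.188% and 0.209% of reads in placebo ACLT, against 0.0847% and 0.0699% in placebo control. Ms4a7, a membrane protein of tissue macrophages, had 68.9 and 85 CPM in the placebo ACLT pools A and B, against 9.49 and 8.15 CPM in the placebo control pools (log2 fold change 3.11, SE 0.21, adjusted p = 0.00067). Trem2, a lipid receptor of macrophages and osteoclasts, had 59.9 and 71.6 CPM in placebo ACLT, against 12.6 and 9.39 CPM in placebo control (log2 fold change 2.58, SE 0.20, adjusted p = 0.00079), and C1qb, a chain of the complement starter C1q, had 327 and 397 CPM in placebo ACLT, against 106 and 84 CPM in placebo control (log2 fold change 1.93, SE 0.16, adjusted p = 0.000942). The largest log2 fold changes in the CC chemokine list were those of Ccl2 and Ccl7, which attract monocytes. Ccl7 had 14 and 25 CPM in placebo ACLT, against 0.845 and 0.605 CPM in placebo control (log2 fold change 4.61, SE 0.38, adjusted p = 0.000942). Ccl2 had 9.57 and 17.5 CPM in placebo ACLT, against 0.596 and 0.249 CPM in placebo control (log2 fold change 4.89, SE 0.54, adjusted p = 0.00149), and Ccl8 had 17.3 and 39.3 CPM in placebo ACLT, against 1.34 and 1.17 CPM in placebo control (log2 fold change 4.32, SE 0.48, adjusted p = 0.00148). Of the 15 CC chemokine and receptor genes 7 rose and none fell.

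Other branches of inflammation differed in their share of calls, where 11.6% of all tested genes rose. Of 16 inflammatory mediators 3 rose, Saa3, Il33 and Csf1, and the acute phase protein Saa3 had 4.09 and 11.4 CPM in placebo ACLT, against 0.501 and 0.178 CPM in placebo control (log2 fold change 4.28, SE 0.61, adjusted p = 0.00365). Interleukin 1 beta (Il1b) had 33.7 and 24.8 CPM in placebo ACLT, against 38.5 and 20.2 CPM in placebo control, and interleukin 6 (Il6) had 0.249 and 0.739 CPM in placebo ACLT, against 0.447 and 0.463 CPM in placebo control, and neither was called. Their values overlap between the groups. Of 13 CXC chemokine and receptor genes 2 rose, Cxcl16 and Cxcl1, with log2 fold changes of 2.71 and 2.94. Of 14 complement genes 7 rose and 1 fell (C3), 4 rising without ACLT pool A, with factor B (Cfb) at 97.8 and 107 CPM in placebo ACLT, against 35.7 and 27.5 CPM in placebo control (log2 fold change 1.70, SE 0.17, adjusted p = 0.0012). Of 16 interferon-stimulated genes 1 rose (Bst2), and of 11 T and NK cell genes 1 fell (Cd4). Of 7 antigen presentation genes of MHC class II none was called in limma, and 1 had an unadjusted p under 0.05 (5456 of all 17401 genes did). Interferon and B cell lists had medians of 0.07 and 0.06, both of which turned negative under trimmed mean rescaling (-0.14 and -0.15).

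Osteoclast genes rose in 8 of 12 cases and none fell, with a median of 1.23 (11.6% of all genes rose). Cathepsin K (Ctsk), the collagenase of bone resorption, had 1363 and 874 CPM in placebo ACLT, against 317 and 294 CPM in placebo control (log2 fold change 1.84, SE 0.26, adjusted p = 0.00365). The osteoclast cytokine RANKL (Tnfsf11) had 4.24 and 5.75 CPM in placebo ACLT, against 1.09 and 0.89 CPM in placebo control (log2 fold change 2.27, SE 0.48, adjusted p = 0.016), its receptor RANK (Tnfrsf11a) had 19.2 and 29.7 CPM in placebo ACLT, against 8.1 and 9.82 CPM in placebo control (log2 fold change 1.42, SE 0.27, adjusted p = 0.011), and the decoy receptor osteoprotegerin (Tnfrsf11b) had 60.3 and 51.8 CPM in placebo ACLT, against 91.4 and 38.3 CPM in placebo control (adjusted p = 0.914). The ligand and receptor are higher in both ACLT pools, and the decoy receptor overlaps between groups. The fusion proteins Ocstamp and Dcstamp had log2 fold changes of 1.72 and 1.28. Without ACLT pool A the count was 3 of 12, without ACLT pool B and without control pool A it was 4.

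Bone matrix genes gave a mixed picture. In the list of hypertrophic chondrocyte, osteoblast and osteocyte genes 3 of 15 rose and 1 fell, where 11.6% of all genes rose and 4.03% fell. Osteopontin (Spp1) had 3299.7 and 2557 CPM in placebo ACLT, against 975 and 819 CPM in placebo control (log2 fold change 1.70, SE 0.29, adjusted p = 0.00683) and bone sialoprotein (Ibsp) had 2489.8 and 1315 CPM in placebo ACLT, against 721 and 514 CPM in placebo control (log2 fold change 1.57, SE 0.43, adjusted p = 0.0409). Osteocalcin (Bglap), from mature osteoblasts, had 660.3 and 227 CPM in placebo ACLT, against 141 and 259 CPM in placebo control and was not called (adjusted p = 0.246), and 1 of its ACLT pools is below control pool B. Sclerostin (Sost), an inhibitor of Wnt signaling that osteocytes secrete, fell, with 1.1 and 2.76 CPM in placebo ACLT, against 8.75 and 7.15 CPM in placebo control (log2 fold change -2.15, SE 0.42, adjusted p = 0.0117). Without single placebo pools, between 0 and 2 of the 15 genes of this list rose and 0 or 1 fell.

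Chondrocyte genes themselves were not called lower, where 11.6% of all tested genes rose and 4.03% fell. Of 21 tested 1 rose, the transcription factor Sox5, with 100.5 and 86.6 CPM in placebo ACLT, against 24.2 and 8.65 CPM in placebo control (log2 fold change 2.69, SE 0.43, adjusted p = 0.00561), and the median was -0.30. The type IX collagen chain Col9a3 had 13.9 and 17.6 CPM in placebo ACLT, against 14.6 and 135 CPM in placebo control (adjusted p = 0.274), and chondromodulin (Cnmd) had 9.07 and 7.31 CPM in placebo ACLT, against 3.08 and 42.7 CPM in placebo control (adjusted p = 0.774). In both, as in Col2a1, control pool B is the highest of the 4, and control pool A is near or below the ACLT pools. The median log2 ratio of control pool B over pool A was 1.10 in this list, against -0.19 over all genes, and without control pool A 6 of the 21 fell, with a median of -0.67. Chondroadherin (Chad), whose groups did not overlap, had 385 and 414 CPM in placebo ACLT, against 671 and 637 CPM in placebo control (adjusted p = 0.0914).

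**Figure D3:**
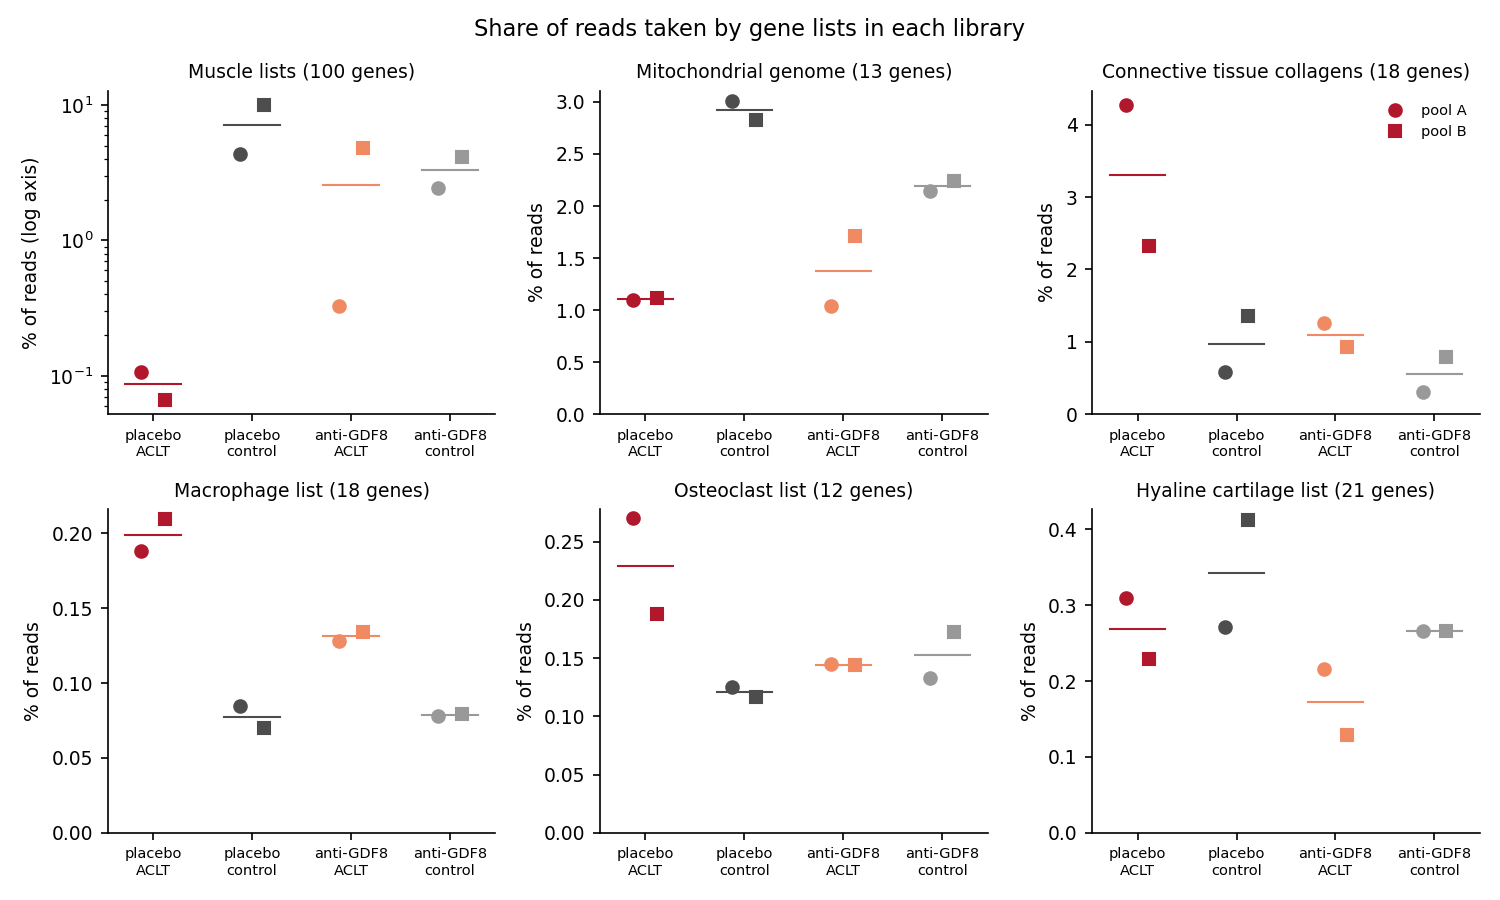
Percent of reads (vertical axis, log scale for muscle only) taken by 6 gene lists in the 8 libraries, circles for pool A and squares for pool B, with a line at the mean of each pair. Muscle lies at 0.107% or less in placebo ACLT, against 4.34% and 9.98% in placebo control. Collagens, macrophage and osteoclast genes lie higher in both placebo ACLT pools, and cartilage genes overlap between the groups.

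Few vessel, blood and cycling cell genes were called on the deposited scale. Of 17 endothelial genes Sox18, Emcn and Erg rose and Vwf fell, with a median of 0.56, which under trimmed mean rescaling was 0.35. The fall was lost without any 1 placebo pool, and 1 gene rose without either ACLT pool and none without control pool B. Mural cells were split. The pericyte genes Rgs5, Cspg4 and Mcam rose, with Rgs5 at 141 and 153 CPM in placebo ACLT, against 53.2 and 35.4 CPM in placebo control (log2 fold change 1.76, SE 0.22, adjusted p = 0.00212). Abcc9 fell in the same list. Smooth muscle myosin (Myh11) fell, with 14.2 and 16.3 CPM in placebo ACLT, against 40.3 and 33.1 CPM in placebo control (log2 fold change -1.27, SE 0.20, adjusted p = 0.00475), and calponin (Cnn1) fell, with 1.45 and 2.26 CPM in placebo ACLT, against 7.46 and 6.94 CPM in placebo control (log2 fold change -1.96, SE 0.48, adjusted p = 0.0266). In the anti-GDF8 control limbs Cnn1 had 0.973 and 1.67 CPM and Myh11 15.3 and 13.6 CPM, so the placebo control level of both is the highest of the 4 groups. Erythroid genes had 1 fall of 17 (Sptb) and neutrophil granule genes 1 of 17 (Csf3r), near the 4.03% of all genes that fell. The B cell list had none of 16 in limma, with 2 at an unadjusted p under 0.05 (5456 of all 17401 genes). Of 29 cell cycle genes 27 had a negative fold change and 2 fell, Mcm2 and Mcm5, with Mcm2 at 110.4 and 139.8 CPM in placebo ACLT, against 193 and 223 CPM in placebo control (log2 fold change -0.74, SE 0.17, adjusted p = 0.0236), and the median was -0.42. Under trimmed mean rescaling 15 of the 29 fell and none was above 0, while 1556 of all 17401 genes fell. Of all 17401 tested genes 10741 had a fold change above 0 and 6660 one below 0, and 11.6% rose. Cytosolic ribosomal protein genes had fold changes above 0 in 38 of 38 cases and 18 rose. Under trimmed mean rescaling 36 were above 0 and 10 rose, and 3 or fewer rose without either ACLT pool or without control pool B.

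Among the lists outside those of muscle, only that of the mitochondrial genome had all its tested genes called lower (4.03% of all genes fell). All 13 protein genes of the respiratory chain encoded there fell, with log2 fold changes around a median of -1.40 (19.4% of all genes had both ACLT pools below both control pools, and all 13 did). They took 1.09% and 1.12% of reads in placebo ACLT, against 3.01% and 2.83% in placebo control. The NADH dehydrogenase subunit mt-Nd1 had 1019 and 1071 CPM in placebo ACLT, against 3369 and 3233 CPM in placebo control (log2 fold change -1.66, SE 0.28, adjusted p = 0.00678), and cytochrome oxidase subunit mt-Co3 had 1139.9 and 1130.4 CPM in placebo ACLT, against 3246 and 2777 CPM in placebo control (log2 fold change -1.40, SE 0.22, adjusted p = 0.00535). The control pools are close to each other in these genes, with a median log2 ratio of pool B over pool A of -0.06, whereas the muscle lists had 1.04. Between the anti-GDF8 ACLT pools the 13 genes had a median ratio of 0.70, against -0.02 for all tested genes. That median was below the limit for following muscle, a limit that 1 of the 13 passed. The part of muscle RNA in this fall was not tested. All 13 stayed called without control pool A, 6 without control pool B and 3 without either ACLT pool. With the mean of the muscle lists as a covariate none was called and the median was -0.47.

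Nuclear genes of the same pathways had smaller fold changes as lists. Of 74 nuclear respiratory chain genes 15 fell and 1 rose (Cox8a), with a median of -0.31 (4.03% of all genes fell). Of 23 genes of the TCA cycle and pyruvate dehydrogenase 10 fell, with a median of -0.81, and none rose. Under trimmed mean rescaling 30 of the 74 fell and none rose, with a median of -0.52, and 18 of the 23 fell. With that scaling 1556 of all 17401 tested genes fell. Citrate synthase (Cs), the entry step of the cycle, had 139.9 and 174 CPM in placebo ACLT, against 272 and 419 CPM in placebo control (log2 fold change -1.11, SE 0.27, adjusted p = 0.0284). Pdk4, a kinase that shuts off pyruvate dehydrogenase, had 18.1 and 22.8 CPM in placebo ACLT, against 251 and 624 CPM in placebo control (log2 fold change -4.28, SE 0.63, adjusted p = 0.00398), and it followed muscle. The lactate transporter Slc16a3 had 69.7 and 63.4 CPM in placebo ACLT, against 130.5 and 218 CPM in placebo control (log2 fold change -1.34, SE 0.25, adjusted p = 0.0105) and did not follow muscle. Many of these calls were lost without either ACLT pool or without control pool B, each of which leaves 1 pool in its group. With any 1 placebo pool left out, the median of the nuclear respiratory list stayed between -0.37 and -0.27. That of the TCA list stayed between -0.92 and -0.61.

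The largest falls that did not follow muscle were of several kinds. Popdc2, a membrane protein of striated muscle, had 1.79 and 3.73 CPM in the placebo ACLT pools A and B, against 16 and 25.7 CPM in the placebo control pools (log2 fold change -2.95, SE 0.39, adjusted p = 0.00288). In the anti-GDF8 ACLT limbs it had 11.4 and 18.5 CPM, so it is low in the placebo ACLT pools and in no other library. The cytochrome P450 Cyp2e1 had 3.89 and 1.09 CPM in placebo ACLT, against 11.2 and 9.26 CPM in placebo control (log2 fold change -2.27, SE 0.55, adjusted p = 0.0268). The antibody variable segments Igkv14-126, Ighv1-61, Ighv5-16 and Ighv5-12 had log2 fold changes of -2.19, -1.95, -1.78 and -1.75. Such segments share sequence, so reads may be split among them. Amd1, the decarboxylase that starts the spermidine pathway, had 57.1 and 63.7 CPM in placebo ACLT, against 144 and 313 CPM in placebo control (log2 fold change -1.81, SE 0.30, adjusted p = 0.00651), and in the other 4 libraries it lay between 75 and 96.4 CPM. Ankrd9, Ppm1l and Hook1 had log2 fold changes of -1.83, -1.76 and -1.75, and the predicted gene Gm7265 had -2.25.

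**Figure D4:**
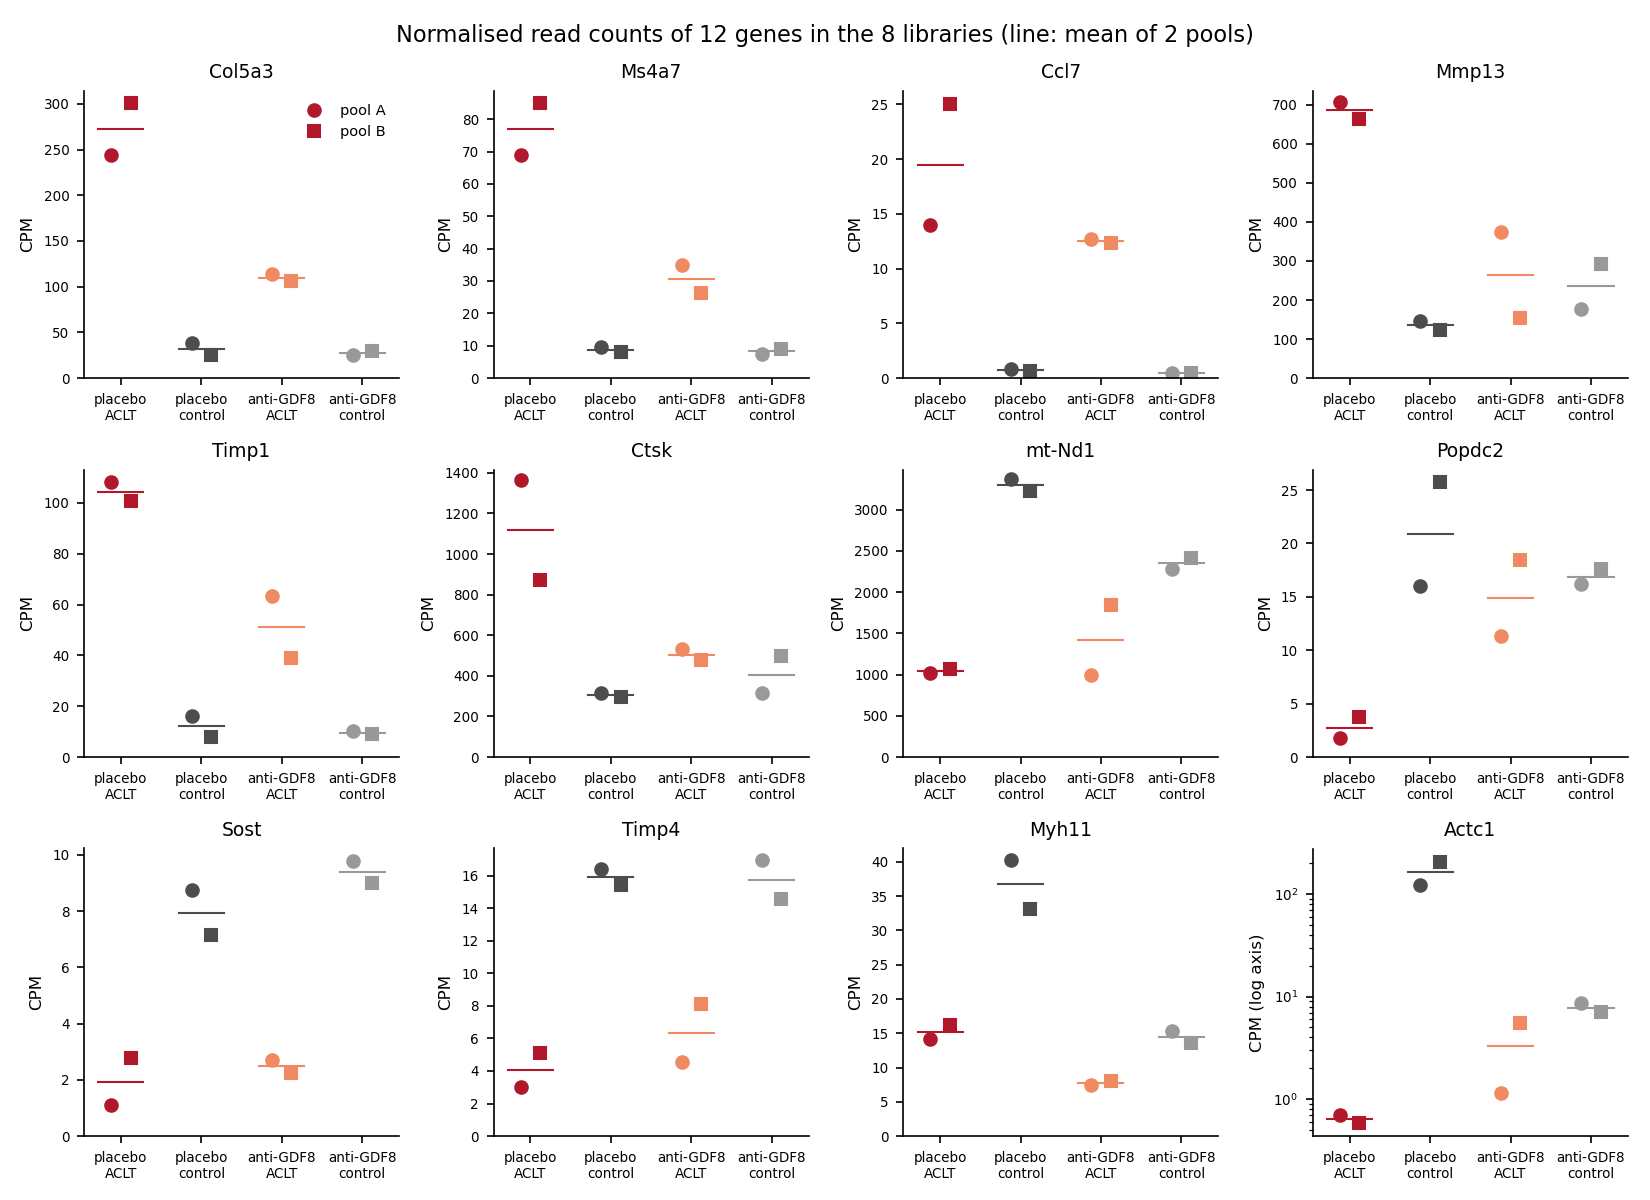
CPM (vertical axis, log scale for Actc1 only) of 12 genes in the 8 libraries, circles for pool A and squares for pool B, with a line at the mean of each pair. Col5a3, Ms4a7, Ccl7, Mmp13, Timp1 and Ctsk lie higher in both placebo ACLT pools than in both placebo control pools, and mt-Nd1, Popdc2, Sost, Timp4, Myh11 and Actc1 lie lower.

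The same contrast under the anti-GDF8 antibody gives values to set beside these. Of the 2011 genes that rose under placebo, the median log2 fold change of anti-GDF8 ACLT over anti-GDF8 control was 0.47, against 1.28 in the comparison that chose them. The connective tissue collagens had a median of 1.64 there, with 7 of 18 called higher, the macrophage list 1.19 with 6 of 18, and the mitochondrial genes -0.74 with none called. Other lists went both ways. Medians were -0.87 for cartilage genes, 0.45 for CXC and 1.08 for CC chemokine genes, against -0.30, 0.32 and 1.09 under placebo. Osteoclast genes had -0.14 and matrix metalloproteinases 0.33, against 1.23 and 1.63 under placebo. The alpha-1-antitrypsin genes had -3.01 with 2 of 5 called lower, against -0.69 with none called under placebo. Sost had 2.71 and 2.26 CPM in anti-GDF8 ACLT and 9.79 and 8.98 CPM in anti-GDF8 control, and both of its ACLT values are below both control values. Timp4 had 4.52 and 8.13 CPM in anti-GDF8 ACLT and 17 and 14.5 CPM in anti-GDF8 control, also with no overlap. Ctsk had 533 and 476 CPM in anti-GDF8 ACLT and 314 and 498 CPM in anti-GDF8 control, and these overlap. The difference between the 2 injury responses was tested as an interaction in limma and passed for no gene, with a smallest adjusted p of 0.432, although 1799 genes had an unadjusted p under 0.05. Without anti-GDF8 ACLT pool A it passed for 305 genes. The muscle lists had a median of -1.34 under anti-GDF8, where ACLT pool B held about as much muscle RNA as the control pools, so the 2 contrasts did not start from like muscle shares.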

How the data were processed

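RNA from articular cartilage pools was sequenced in 8 libraries of 4 groups. The authors deposited CPM per gene, that is reads per gene and 1000000 reads of the library, and the submitters' processing notes name STAR 2.7.3a, Partek, DESeq2, mm10 and mm39, with no role or order. The gene coordinates in the table are those of GRCm39. Low values step by a fixed amount in each library, taken as the value of 1 read, which gave the depths. Of the values under 200 reads 69.7% to 75.5% were whole multiples of it within 0.02 reads, so the table holds estimated rather than whole reads and no count test was run. The quadriceps is named in a treatment label of the 4 control samples whose tissue label is cartilage, and they were taken as cartilage.

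The table of 20539 genes was analysed as log2(CPM + 0.0498) in limma 3.58.1 (R 4.3.3) with an intensity trend, 1 mean per group and no block, for genes averaging 10 reads or more at the median depth, with Benjamini-Hochberg adjustment over all 17401. The residual spread had 4 degrees of freedom, and limma added 4.74 prior degrees of freedom from the spread over all tested genes. The same model gave the anti-GDF8 contrast and the interaction, and the procedure was tested on simulated data. Python 3.11.15 with pandas 2.3.3 and numpy 2.4.6 wrote the tables, and matplotlib 3.10.9 drew the plots. Members and gene lists were chosen with earlier results of these data known, and lists are described by counts and medians.

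Named genes were the 8 called muscle-list genes with the highest control means, the 14 largest rises and the 14 largest falls that did not follow muscle (mean of at least 5 CPM, groups not overlapping), up to 4 called members of each list by adjusted p, and genes the study names. Other genes in the text, such as Col2a1, Acan, Myh7, Tnfsf11, Tnfrsf11b, Bglap and Il6, were chosen after their values were seen. Names carried by more than 1 gene, and some single genes, are not reported here. Of 17390 tested gene names 12049 had a promoter in the RefSeq table of GRCm38.p6, whose coordinates apply to those sequences alone. The labels do not say whether pools of the same letter came from the same mice. Deviations of same-letter pools correlated at 0.04 between placebo ACLT and placebo control, at 0.30 between the anti-GDF8 groups and at 0.003 to 0.21 between the other group pairs, so the pairing is unsettled and the block by letter is an alternative. Alternatives were other added values, filters, scalings, trends, blocks, a muscle covariate, and each library left out.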

Additional observations from a re-analysis of the deposited data

How the results depend on the processing

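The counts of 2011 higher, 701 lower and 358 lower outside the muscle lists that did not follow muscle moved with the libraries, the scaling and a muscle covariate. Leaving out 1 library at a time gave 551 to 2456 higher, 127 to 949 lower and 35 to 456 that did not follow, and 0 to 305 interaction calls, with 305 without anti-GDF8 ACLT pool A. Without either anti-GDF8 control pool 186 falls did not follow. Of the rises 455, and of the falls 59, were called without each placebo library in turn. A lone pool was then assumed to vary like the other groups.

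Rescaling by a trimmed mean gave 1556 lower and 1173 not following, quantile normalization 1056 and 688, and CPM over reads outside the muscle, erythroid and neutrophil lists 1064 and 710. CPM over reads outside the muscle lists gave 617 not following. Rises made up 61.4% of calls after quantile normalization and 63.6% with CPM outside the muscle lists. Without the trend there were 262 lower and 115 not following. A replicate block by letter gave 2052 higher, 888 lower and 1 interaction call, a block by letter within each treatment 2043 higher, 1010 lower, 555 not following and 1 interaction call, and a block by title number 1768 higher and 579 lower. Pool numbers and letters are no pairing that the labels explain.

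With the mean of the muscle lists as a covariate 1 gene rose, none fell and none fell without following muscle. That mean separates the 2 placebo groups, and the cause of the loss was not tested. The connective tissue collagens kept a median of 2.13 in that fit, and the mitochondrial genes one of -0.47. The muscle covariate also turned the sign of the log2 fold change to 0.089 in Cnmd, 0.021 in Col2a1 and in Cs, 0.12 in Il6, 1.26 in Mstn, 2.16 in Mybpc1, 2.62 in Myh7, 1.91 in Myog, 0.24 in Tnni1 and 0.085 in Vwf. Il1b, at 0.05, went to -0.16 with a trimmed mean, -0.073 with quantiles, -0.057 and -0.075 with CPM outside the muscle and the muscle, erythroid and neutrophil lists, and -0.95 with the covariate. With 1 library left out Cnmd ran between -2.38 and 1.39, Col9a3 between -3.10 and 0.096, Il1b between -0.41 and 0.51, Il6 between -0.76 and 0.64, Timp3 between -0.62 and 0.097 and Tnfrsf11b between -0.71 and 0.55, and none of these 6 was called with all libraries in the fit. The other alternatives left each of these 3 counts within 1.5 times its value. At this depth 10 reads is 0.498 CPM, so genes under that level were not analysed, and 2 pools per group limit every error.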

Other observations

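These groups were put together after their values had been seen, so they carry no test. Of all tested genes 4.03% fell and 11.6% rose. Platelet and megakaryocyte genes were lower in the placebo ACLT limbs, with 8 of 12 called and a median log2 fold change of -0.70. Gp1ba, a subunit of the platelet receptor for von Willebrand factor, had 48.6 and 54.5 CPM in placebo ACLT, against 112 and 105 CPM in placebo control. The 12 genes took 0.177% and 0.168% of reads in placebo ACLT, against 0.291% and 0.209% in placebo control. Antibody variable segments were called lower in 35 of 169 cases and higher in none, with a median of -0.83, while under anti-GDF8 their median was 0.12. They took 0.151% and 0.113% of reads in placebo ACLT, against 0.252% and 0.212% in placebo control.

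Of 9 genes of the C1q and TNF related family 6 rose and none fell, with a median of 2.32. C1qtnf3 had 48.3 and 55.7 CPM in placebo ACLT, against 1.09 and 1.53 CPM in placebo control. Of 17 genes of the Asb family, which carry ankyrin repeats and a SOCS box, 8 fell, with a median of -1.33, and 10 of the 17 followed muscle.

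A set of predicted genes near the start of chromosome 9 stood out in a single pool. The 8 tested genes there took 0.0685% of reads in placebo ACLT pool A and 0.0110% in pool B, against 0.00351% and 0.00421% in placebo control. Gm10719 had 284 and 43.4 CPM in placebo ACLT, against 14.5 and 16.7 CPM in placebo control, and Gm10718 had 253 and 40.7 CPM in placebo ACLT, against 13.4 and 15.3 CPM in placebo control. Gm10800 on chromosome 2 had 322 and 60.4 CPM in placebo ACLT, against 15.2 and 19.7 CPM in placebo control. Such predicted genes can be near-identical copies that share reads, so their values are uncertain.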
